A study of Rattus norvegicus with 4 samples.

Results

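Genes that govern programmed cell death were followed in rat colon after mesenchymal stem cell transplantation (MSCT). The 9 genes are Bcl2, Bcl2l1 and Mcl1, which restrain apoptosis, Bax and Bak1, which carry it out at the mitochondrion, and the caspase genes Casp1, Casp6, Casp8 and Casp9. They were chosen by name, as the rows of the deposited table whose RefSeq accession belongs to one of these symbols. A value on every array was part of the rule, so all 9 of 9 had one. They stand among 6968 named genes and 18350 measured rows. The arrays were made from colon tissue of 2 control rats and 2 rats of the MSCT group, all of them male Sprague Dawley animals. The MSCT rats had colitis induced by instilling 2,4,6-trinitrobenzene sulfonic acid (TNBS) into the colon and then received purchased mesenchymal stem cells, labeled with green fluorescent protein by a virus, through the tail vein. The control animals are described as IBD rats in the paper and as normal rats in the sample descriptions, so a difference between transplanted and other rats cannot be told apart from one between rats with and without colitis. The study's Results and Methods also differ on the day after transplantation, and the labels give none. The paper describes the samples as covering the lesion, which for the control rats depends on whether they had colitis. The tissue holds many cell types. In such tissue, fewer cells of a type and less RNA per cell cannot be told apart.

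Apoptosis runs by 2 routes. In the mitochondrial route, BH3-only proteins sense damage or loss of survival signals and engage the BCL2 family. Guardians such as Bcl2, Bcl-xL (the product of Bcl2l1) and Mcl1 hold the pore-forming effectors Bax and Bak1 in check, and once these open the outer membrane, released cytochrome c assembles with Apaf1 into the apoptosome and activates caspase-9. In the death receptor route, ligands such as Fas ligand and TRAIL activate caspase-8 through the adaptor Fadd. Both routes end in executioner caspases, to which caspase-6 belongs. Caspase-1 belongs to another branch, the inflammasome, and matures the cytokines interleukin-1 beta and interleukin-18. In the colon, epithelial cells are shed and replaced constantly, and caspase-8 is also known to hold back necroptosis there.

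Promoter windows of Casp6, Casp9 and Casp1 are given first, because Casp6 and Casp9 differed between the groups in opposite directions and Casp1 stands for the inflammatory branch. The windows reach from 250 bases before to 50 bases after the start site and come from RefSeq on build GRCr8. The table held windows for 7 of the 9 genes, and Bax and Casp8 had no entry. Capitals mark the GC box GGGCGG in the first pair and the interferon response core (GAAA on both sides of a 2-base spacer) in Casp1, each searched on both strands.
Casp6, chr2:221140136-221140435, plus strand: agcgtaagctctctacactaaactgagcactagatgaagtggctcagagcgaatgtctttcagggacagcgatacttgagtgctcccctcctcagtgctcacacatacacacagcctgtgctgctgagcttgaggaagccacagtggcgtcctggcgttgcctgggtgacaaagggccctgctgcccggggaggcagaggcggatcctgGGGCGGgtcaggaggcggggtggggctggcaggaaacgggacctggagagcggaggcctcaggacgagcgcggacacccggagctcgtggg
Casp9, chr5:159391824-159392123, plus strand: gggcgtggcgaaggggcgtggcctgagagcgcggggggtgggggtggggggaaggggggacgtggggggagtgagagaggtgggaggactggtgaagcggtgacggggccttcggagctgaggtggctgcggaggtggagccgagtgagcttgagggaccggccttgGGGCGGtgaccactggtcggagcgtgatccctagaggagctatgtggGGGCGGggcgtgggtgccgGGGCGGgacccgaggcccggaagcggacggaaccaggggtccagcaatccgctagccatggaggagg
Casp1, chr8:10872580-10872879, plus strand: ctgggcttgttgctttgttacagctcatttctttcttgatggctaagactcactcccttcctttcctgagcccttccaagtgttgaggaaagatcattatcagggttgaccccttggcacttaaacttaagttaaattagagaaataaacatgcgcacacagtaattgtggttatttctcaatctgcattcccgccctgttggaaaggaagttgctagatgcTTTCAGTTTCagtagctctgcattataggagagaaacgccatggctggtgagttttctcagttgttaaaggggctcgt
The Casp9 window held 3 GC boxes, at 83, 36 and 17 bases before the start site, and 72.0% of its bases were G or C. The Casp6 window held 1 GC box, at 41 bases before the start site, with 63.0% G and C. The Casp1 window was poorer in G and C (43.3%) and held 1 GC box and, at 28 bases before the start site, 1 interferon response core on the opposite strand. Of all 33469 windows of the table, 33.1% held a GC box and 3.92% held the interferon core, and the median share of G and C was 51.7%. None of the other windows of these genes held the interferon core. A match of letters describes the window and shows no binding.

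Among the 9 genes, Casp8 and Casp6 were higher in the MSCT group, by 1.71-fold and 1.69-fold, and Casp9 was lower, by 1.45-fold. The guardians Bcl2l1 and Mcl1 and the effectors Bax and Bak1 lay within the spread of the arrays, and Bcl2 and Casp1 were higher in the MSCT group without passing the test. The test was that of limma, which fits each row and steadies its variance with that of the other rows, on log2 intensities. In total, 3 of the 9 genes had an unadjusted p under 0.05 by limma, 2 higher and 1 lower, where 12.0% of all rows had one (4.80% higher and 7.17% lower). Among named genes with 1 row each, 6.82% were higher and 5.44% lower by this threshold. When the dimmer 50% of rows were left out, 8 of the 9 genes were still tested. Of these, 3 had an unadjusted limma p under 0.05, all higher, beside 18.9% of the rows tested. With the thresholds of the study (over 2-fold and an unadjusted p under 0.05) applied to the limma fit, none of the 9 passed, where 4.63% of all rows did. No member passed by limma after adjustment at 0.05, as 0% of all rows did, and the smallest adjusted p of the 9 was 0.324. An equal-variance test of each row by itself put 3 of the 9 under an unadjusted 0.05 (9.66% of all rows) and none under an adjusted 0.05. The median difference of the 9 genes was 0.20 on the log2 scale, that of all rows was -0.02 and that of named genes was 0.05. With 2 arrays a side, the smallest two-sided p of an exact permutation test is 0.333. Calls under 0.05 by limma or by the equal-variance test therefore rest on the distribution that each assumes for the log2 values.

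**Figure D1:**
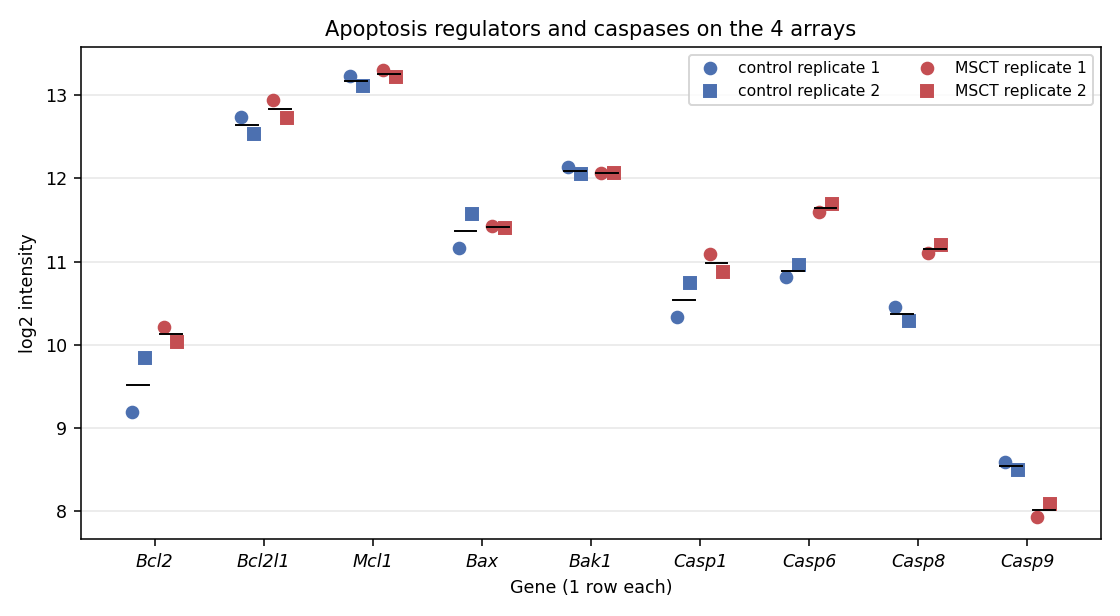
Log2 intensity (vertical axis) of each of the 9 genes on the 4 arrays, with control arrays in blue, MSCT arrays in red, replicate 1 as circles, replicate 2 as squares and group means as black bars. Casp6 and Casp8 are higher on both MSCT arrays and Casp9 is lower, while the groups overlap for Bcl2l1, Mcl1, Bax and Bak1.

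Casp8, the initiator caspase of the death receptor route, had log2 intensities of 10.46 and 10.28 in control replicates 1 and 2 and 11.10 and 11.19 in MSCT replicates 1 and 2, the order used throughout. The groups did not overlap, and the gap between them was 0.64, wider than the distance between the arrays of either group. The log2 difference was 0.78 (SE 0.19, 95% interval 0.26 to 1.29, adjusted p = 0.324). Of all rows, 12.3% had a larger difference in size. Without MSCT replicate 1 or 2 the difference was 0.82 or 0.73, and Casp8 was no longer under an unadjusted 0.05.

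Casp6, an executioner caspase that cleaves nuclear lamins, showed nearly the same pattern. Its log2 intensity was 10.81 and 10.96 for control and 11.60 and 11.69 for MSCT, again without overlap. The log2 difference was 0.76 (SE 0.19, 95% interval 0.25 to 1.27, adjusted p = 0.324), and 13.1% of all rows had a larger one in size. It too was over the unadjusted 0.05 without MSCT replicate 1 or 2 (differences of 0.81 and 0.71). When the dimmer 50% of rows were left out, the adjusted p of Casp8 was 0.0589 and that of Casp6 was 0.0593. With each row's variance modelled by its intensity, it was 0.0722 for Casp8 and 0.0538 for Casp6, so neither gene passed under these settings, where 2.69% and 2.11% of all rows tested did.

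Casp9, the initiator that the apoptosome activates, went the other way. It was dim, in the lower part of the table (percentile 27.0 of mean intensity). Its log2 intensity was 8.58 and 8.50 for control and 7.93 and 8.08 for MSCT. The groups did not overlap, and Casp9 was the only one of the 9 genes that was lower on both MSCT arrays than on either control array. The log2 difference was -0.54 (SE 0.19, 95% interval -1.04 to -0.03, adjusted p = 0.402). It was over the unadjusted 0.05 after quantile normalization (difference -0.46), with equal array medians (-0.50), with the variance modelled by intensity and with any 1 array left out (-0.61 to -0.46).

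Casp1, the inflammasome caspase, had log2 intensities of 10.33 and 10.74 for control and 11.09 and 10.88 for MSCT. The MSCT arrays lay above the control arrays by a narrow gap (0.14). The log2 difference was 0.45 (SE 0.24, 95% interval -0.19 to 1.08, adjusted p = 0.523), which does not pass the test. It was 0.24 without control replicate 1 and 0.66 without control replicate 2.

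Of the 3 guardians among the 9 genes, Bcl2, the founding member of the family, had the largest difference. Its log2 intensity was 9.19 and 9.84 for control and 10.21 and 10.04 for MSCT. The groups did not overlap, but the 2 control arrays lay further apart than the group means did. The log2 difference was 0.61 (SE 0.29, 95% interval -0.16 to 1.38, adjusted p = 0.491). Control replicate 1 carried much of it: without that array the difference was 0.29, and without control replicate 2 it was 0.93. Bcl2 was under an unadjusted 0.05 in the latter fit and when the dimmer 50% of rows were left out.

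Bcl2l1, which encodes Bcl-xL, had 3 measured rows, all higher in the MSCT group on average. The brightest row lay at 12.74 and 12.54 for control and 12.94 and 12.73 for MSCT (log2 intensity), so the groups overlapped. Its log2 difference was 0.20 (SE 0.21, adjusted p = 0.724). The other rows differed by 0.42 and 0.47 (adjusted p = 0.499 and 0.474) and did not overlap between the groups. These rows are transcripts of 1 gene and may share signal, so they are not independent. Mcl1, a short-lived guardian, lay at 13.23 and 13.11 for control and 13.31 and 13.22 for MSCT, which is a log2 difference of 0.09 (SE 0.19, 95% interval -0.41 to 0.59).

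The pore-forming effectors differed little between the groups, within wide intervals. Bax had log2 intensities of 11.16 and 11.57 for control and 11.43 and 11.40 for MSCT, where both MSCT values fall between the control values. The log2 difference was 0.05 (SE 0.23, 95% interval -0.56 to 0.65), and it was -0.16 without control replicate 1. Bak1 lay at 12.13 and 12.05 for control and 12.07 and 12.06 for MSCT, the tightest of the 9 genes. Its log2 difference was -0.03 (95% interval -0.52 to 0.46), which was 0.01 with equal array medians and without control replicate 1. A p that misses the threshold does not show that these genes were the same in both groups.

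Control and MSCT values were fully separated for 5 of the 9 genes (55.6%), namely Bcl2, Casp1, Casp6, Casp8 and Casp9, where they did not overlap in 45.8% of all rows. This share lies near that of the whole table.

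The balance of effector and guardian was followed as the log2 ratio of their rows on each array. Only its change between groups was read, because intensities of different rows cannot be set against each other. The Bax to Bcl2 log2 ratio was 1.97 and 1.74 for control and 1.22 and 1.37 for MSCT. It was lower on both MSCT arrays, by 0.56 on average (means 1.29 ± 0.10 and 1.85 ± 0.16, SD, n = 2 arrays each, MSCT and control; exact permutation test, two-sided, p = 0.333, the smallest that this design allows). By themselves, the Bcl2 row differed by 0.61 and the Bax row by 0.05. With any 1 array left out, it ranged from -0.68 to -0.44. Of the 6 ratios of Bax or Bak1 to a guardian, those of Bak1 to Bcl2, Bcl2l1 and Mcl1 also did not overlap between the groups. Their changes were -0.64, -0.23 and -0.12 (exact permutation p = 0.333 each). Over the whole table, 45.8% of single rows did not overlap either. Bax to Bcl2l1 and Bax to Mcl1 overlapped (changes of -0.15 and -0.04; exact permutation p = 1 each). Ratios to Bcl2l1 used its brightest row. Its other rows differed more between the groups (0.42 and 0.47), so the overlap of Bax to Bcl2l1 rests on the choice of row. The 6 ratios share genes and are not independent, and none could pass an adjustment over the 6.

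**Figure D2:**
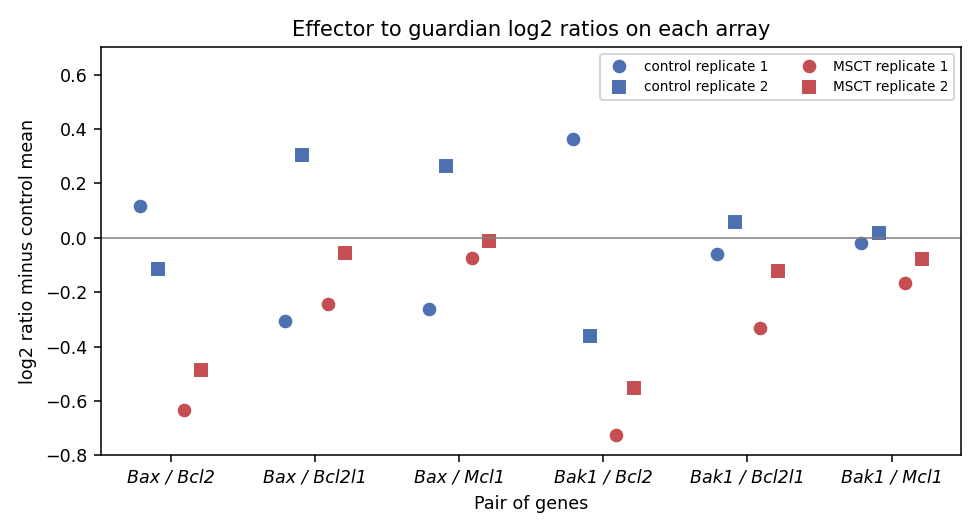
Log2 ratio of an effector (Bax or Bak1) to a guardian (Bcl2, Bcl2l1 or Mcl1) on each array, shown as the distance from the control mean of that pair (vertical axis), with control arrays in blue and MSCT arrays in red. The ratio of Bax to Bcl2 is lower on both MSCT arrays, and for Bax to Bcl2l1 and Bax to Mcl1 the MSCT arrays fall between the control arrays. For Bcl2l1 only its brightest row is drawn.

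Other genes of the cell death pathways were taken from lists of 63 genes by role. Of these, 43 were measured by name, 19 higher and 24 lower in the MSCT group, with a median log2 difference of -0.03. An unadjusted limma p under 0.05 was found for 6 of the 43 (14.0%), 1 higher and 5 lower, where all rows gave 12.0%. The groups did not overlap for 22 of the 43 (51.2%), beside 45.8% of all rows. Both shares lie near those of the whole table. After adjustment, limma put none of the 43 under 0.05, and the equal-variance test of each row by itself put 5 under an unadjusted 0.05.

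Of the 10 measured genes of the BH3-only group, 6 were higher and 4 lower, and 2 passed the unadjusted threshold, both lower (20%, beside 12.0% of all rows in either direction and 7.17% lower). Pmaip1, which encodes Noxa, a protein that binds Mcl1, had log2 intensities of 10.47 and 10.11 for control and 9.02 and 8.95 for MSCT. The arrays stood well apart, with a log2 difference of -1.31 (SE 0.22, adjusted p = 0.260, and 0.0389 with a variance that depends on intensity), a 2.47-fold change. Bmf, a BH3-only protein linked to loss of cell attachment, lay at 8.42 and 8.86 for control and 7.46 and 7.34 for MSCT, with a log2 difference of -1.24 (SE 0.24, adjusted p = 0.282). Both genes passed the study's thresholds in the limma fit. With any 1 array left out, the log2 difference was -1.49 to -1.13 for Pmaip1 and -1.46 to -1.02 for Bmf. Bcl2l11, which encodes Bim, also lay lower on both MSCT arrays, with a log2 difference of -0.65 (adjusted p = 0.427). Bad, Bid, Bik, Hrk, Bnip3 and Bnip3l were higher by 0.05 to 0.41, and Bbc3 (Puma) differed by -0.38, with none past the threshold.

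In the rest of the BCL2 family, Bcl2l2 (Bcl-w), a further guardian, lay at 12.81 and 12.48 for control and 11.94 and 11.93 for MSCT (log2 difference -0.71, SE 0.21, adjusted p = 0.351). Its direction was opposite to that of Bcl2. Bok, an effector related to Bax and Bak1, lay at 11.77 and 11.34 for control and 11.00 and 10.80 for MSCT (log2 difference -0.66, SE 0.24, adjusted p = 0.413). Each kept its unadjusted p under 0.05 in 1 of the 4 fits with an array left out, and in 8 (Bcl2l2) and 7 (Bok) of 12 alternatives in all. These counts include the dimmest row of a gene, which repeats the main fit because Bcl2l2 and Bok had 1 row each. By the equal-variance test of each row by itself neither gene passed, nor did Bok with equal array medians.

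In the death receptor route, the ligand gene Tnfsf10, which encodes TRAIL, was the only one of 5 measured genes past the unadjusted threshold. Its log2 intensity was 11.12 and 11.01 for control and 9.88 and 10.05 for MSCT, which is a log2 difference of -1.10 (SE 0.19, adjusted p = 0.260). It passed the study's thresholds in the limma fit and lay opposite to Casp8, the caspase that acts below its receptors. Tnfsf10 passed an adjusted p of 0.05 when the lower 50% of rows were left out (0.0260) and with a variance that depends on intensity (0.0242). Fas, a death receptor, differed by -0.56, Fadd, the adaptor, by -0.24, and Cflar, which restrains caspase-8, by 0.14, and none of these passed. Faslg and Tnf were blank on all 4 arrays.

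No gene among the 5 other measured caspases passed, and Casp12 differed by -0.67 with overlapping groups. Apaf1, the scaffold of the apoptosome, differed by 0.23, and Cycs, which encodes cytochrome c, by -0.11, with opposite signs when MSCT replicate 1 (Apaf1, -0.05) or control replicate 2 (Cycs, 0.13) was left out. All 4 measured genes of the IAP family were lower on average, from Xiap, whose product inhibits caspases, at -0.12 to Birc5 (survivin) at -0.57. None passed. The groups did not overlap for Xiap and Birc5, as for 45.8% of all rows, and overlapped for Birc2 and Birc3.

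Around Casp1, 3 of 8 listed genes were measured. Il18, a substrate of caspase-1, had log2 intensities of 10.79 and 11.05 for control and 10.35 and 10.61 for MSCT, which is a log2 difference of -0.44 (adjusted p = 0.504). Il1rn, the antagonist of the interleukin-1 receptor, was higher, at 9.44 and 9.90 on the MSCT arrays and 8.18 and 7.71 for control (log2 difference 1.72, SE 0.29, adjusted p = 0.260, and 0.0453 with a variance that depends on intensity). Pycard, the inflammasome adaptor, differed by 0.59 with overlapping groups, and Il1b was blank on all 4 arrays. Ripk3, a kinase of necroptosis, lay at 9.15 and 9.14 for control and 10.13 and 9.55 for MSCT (log2 difference 0.70, adjusted p = 0.424).

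**Figure D3:**
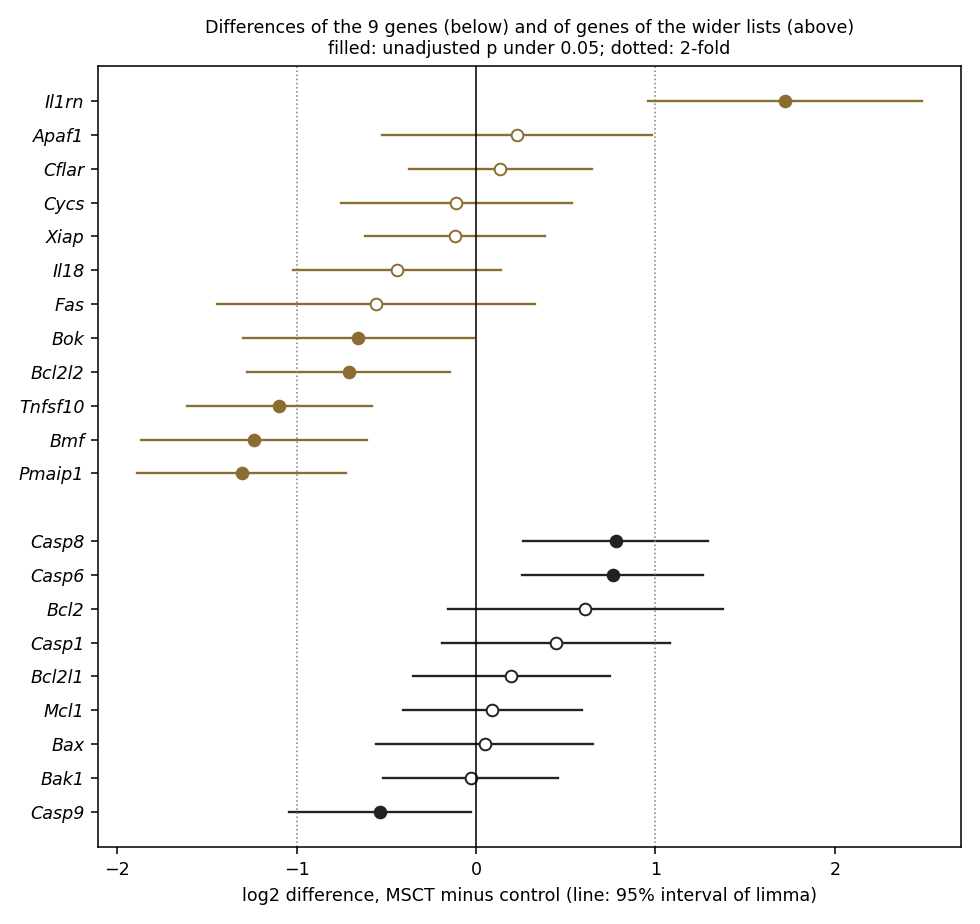
Log2 difference between the MSCT and control arrays (horizontal axis) with its 95% interval from limma, for the 9 genes (black, lower block) and genes of the wider lists (brown, upper block). Filled points have an unadjusted p under 0.05, dotted lines mark 2-fold, and the points of Pmaip1, Bmf, Tnfsf10 and Il1rn lie beyond them while those of all 9 genes lie inside.

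**Figure D4:**
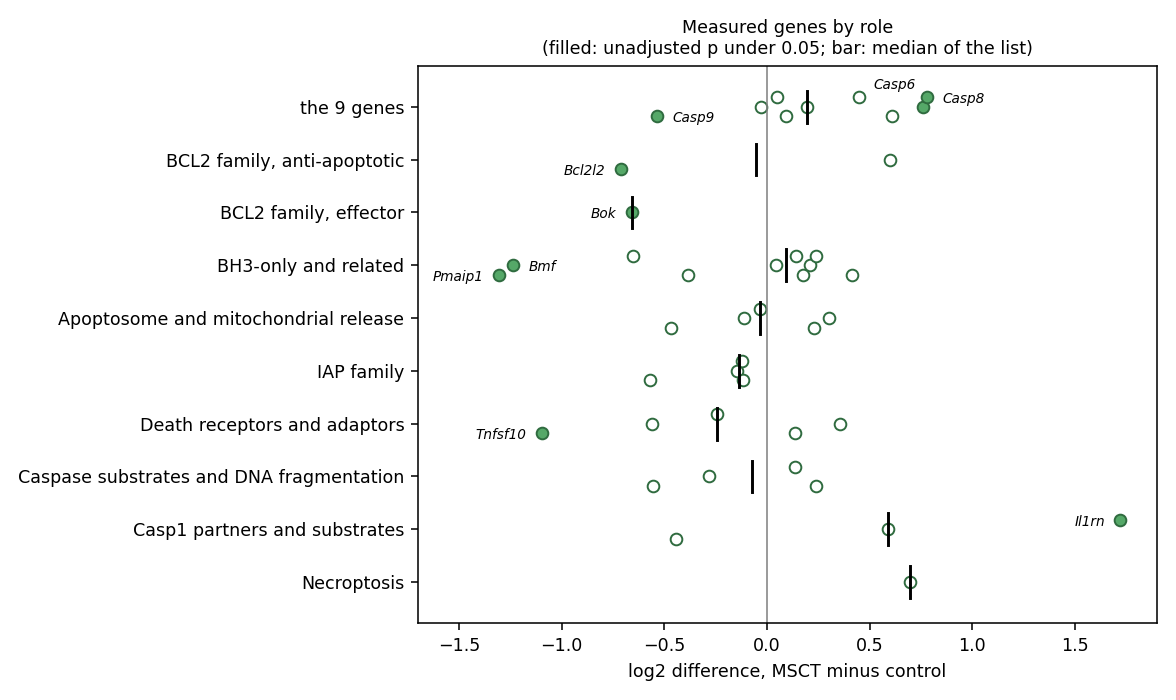
Log2 difference between the MSCT and control arrays (horizontal axis) of the 9 genes and of 35 of the 43 measured genes of the wider lists, arranged by role, with filled points for an unadjusted p under 0.05 and bars for list medians. Genes lie on either side of 0 in most lists, with medians of -0.13 for the IAP family and 0.09 for the BH3-only group.

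The cell types of the tissue were followed with marker lists beside these results. The tissue held the markers of colon: Krt20 and Slc26a3 of the epithelium lay at 14.16 or more and Tagln of smooth muscle at 14.96 or more on the log2 scale on all 4 arrays. Of 8 measured leukocyte markers, 7 were higher in the MSCT group and 3 had an unadjusted limma p under 0.05, namely the macrophage genes Cd68, Csf1r and Aif1 (log2 differences 1.29, 1.00 and 1.39). Of all rows, 48.0% were higher and 12.0% passed this threshold in either direction. Among named genes with 1 row each, as the markers are, 55.8% were higher and 12.3% passed. These shares hold beside each marker count here. The summed intensity of all 8 was 12696 to 13995 for control and 15021 to 17744 for MSCT, and Cd14, which differed by -0.04, made up most of each sum. T cell genes overlapped between the groups (log2 differences Cd3g 0.13, Cd4 0.37 and Cd8a 0.01), and Cd3d, Cd79b, Itgam and S100a8 were blank. Of 10 epithelial markers, 8 were higher, 1 of them (Fabp2) past the threshold, with sums of 170766 to 178258 for control and 191130 to 197543 for MSCT. Of 5 fibroblast markers, Col1a2 was higher past the threshold (0.62), Col3a1 and Pdgfrb differed by 0.78 and 0.86 without passing, and Dcn and Lum by 0.01 and 0.03 with overlapping groups, with sums of 26295 to 40261 for control and 43454 to 45734 for MSCT. The 5 smooth muscle markers differed by -0.04 to 0.08. Of 5 neuronal and glial markers, Uchl1 and Elavl4 were lower (-0.54 and -1.06) past the threshold, with list sums of 7109 to 7304 for control and 5591 on both MSCT arrays. The 2 endothelial markers did not pass (0.29 and 0.05). No measured row was at 0, and the lowest intensity of the table was 31.8. The part of these cell types in the higher Casp6 and Casp8 and in the lower Casp9 was not tested.

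The genes most like Casp8 and Casp9 were sought among 6881 named genes outside the lists, by the root mean square distance of log2 values centered on each gene's mean over the 4 arrays. Closest to Casp8 were Vim, Eng and Gtf2a1l (distances 0.05, 0.06 and 0.06), with log2 differences of 0.68, 0.85 and 0.82. Closest to Casp9 were Ccdc32, Naaa and Sbsn (distances 0.01, 0.02 and 0.02), which were lower by a log2 difference of -0.54, -0.54 and -0.50. With 4 arrays, many rows share a pattern by their group alone.

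**Figure D5:**
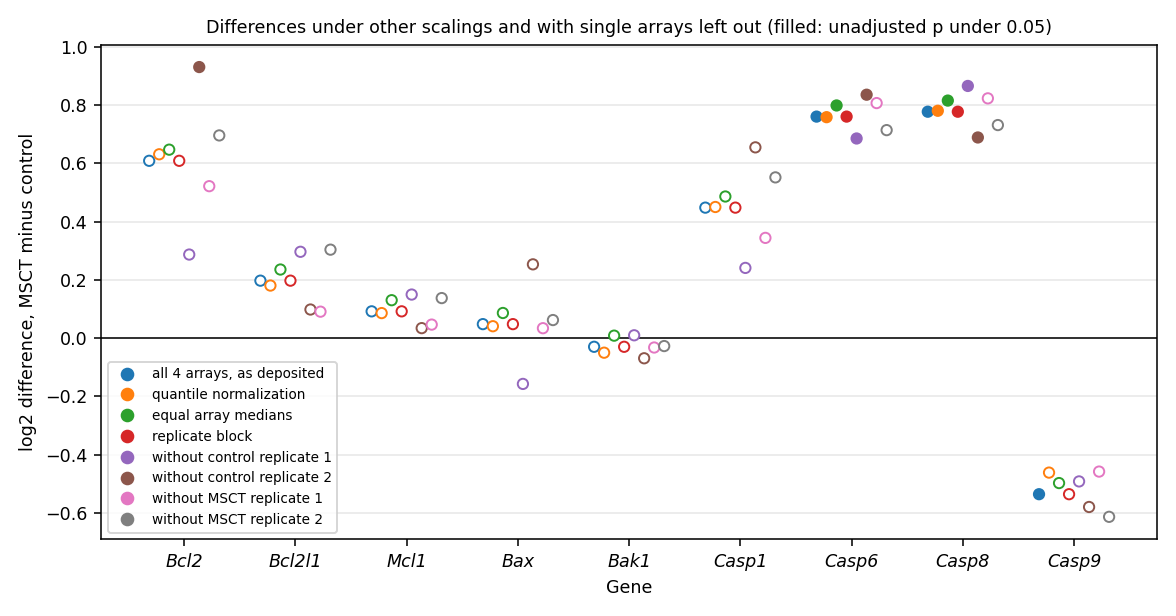
Log2 difference of each of the 9 genes (vertical axis) on all 4 arrays, under other scalings, with the replicate number as a block, and with each array left out. Filled points have an unadjusted limma p under 0.05, and Casp6 and Casp8 stay between 0.69 and 0.87 throughout but lose the threshold without either MSCT array.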

How the data were processed

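Cy3-labeled cDNA from the colon of 4 male rats went onto NimbleGen expression arrays (1 rat each). The authors used a GenePix scanner and NimbleScan software, and the deposited value is a linear intensity for each RefSeq transcript. The submitters' processing notes name RMA, whose steps and the rule for blank rows are not given in the sources used here. Of 26420 rows, 18350 had a value on all 4 arrays and 8070 were blank on all 4. Names came from the RefSeq gene table of GRCr8, through accessions without versions (7068 rows, 6968 genes named). Where a gene had several rows, the row with the highest mean was used.

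The deposited intensity was converted to log2 with no pseudocount, filter or further scaling. Under R 4.3.3, the lmFit and eBayes functions of limma 3.58.1 compared MSCT with control arrays, with Benjamini-Hochberg adjustment over all 18350 rows. The study's thresholds, an unadjusted p under 0.05 with a change over 2-fold, were applied to this fit. Ratios were compared by an exact permutation test. Figures were drawn with matplotlib 3.10.9 and pandas 2.3.3 (Python 3.11.15). The 9 genes and the wider lists were chosen with earlier results of these data known. Named are the 9 genes, the genes of the wider lists past an unadjusted p of 0.05 (at most 5 a list and direction), a fixed set of central genes (Apaf1, Cycs, Xiap, Cflar, Fas and Il18; Il1b was blank, and some others are not reported here) and, for likeness, the 3 genes outside the lists closest to a member. Bcl2l11, Ripk3, Bad, Bid, Bik, Hrk, Bnip3, Bnip3l, Bbc3, Fadd, Pycard, Casp12, Birc5 and the markers named were added after their values were seen, as were the ratios other than Bax to Bcl2. The counts of calls and the differences of the genes named by this rule were recomputed, where the gene was still tested, with quantile normalization, with all arrays set to 1 median, without the lower 25% or 50% of rows by mean intensity, with limma's trend and robust options, by an equal-variance test of each row by itself (the study names a test for its other measurements but none for the array screen), with a replicate block, without each array singly, and with the dimmest row of a gene. The Bax to Bcl2 ratio was recomputed under the scalings, the block, single arrays left out, the dimmest row and linear means. Equal array medians, the block and the dimmest row leave the change of this ratio the same by construction. The other ratios, the genes added later and the markers were not recomputed. RT-PCR and histology were not analysed here.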

Additional observations from a re-analysis of the deposited data

How the results depend on the processing

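Of the 9 genes, Casp6 and Casp8 kept an unadjusted p under 0.05 in 10 of 12 alternatives each and Casp9 in 3 of 11. These counts include the dimmest row of a gene, which repeats the main fit here because each of these genes had 1 row. The count of the 9 genes past this threshold ranged from 0 to 3 with 1 array left out (0 without MSCT replicate 1 and 0 without MSCT replicate 2, each fit resting on 1 array in a group that is assumed to vary like the other). All rows past it ranged from 1328 (without MSCT replicate 1) to 2688 (without control replicate 2). Rows past the study's thresholds numbered 388 by the equal-variance test of each row by itself and 251 without the lower 50% of rows, and from 934 to 1565 with 1 array left out (1565 without control replicate 2, 1503 without MSCT replicate 2), against 850. Among named genes, the sign changed with equal array medians for Bak1 (0.0084). It also changed with 1 array left out for Bak1 (-0.069 to 0.0096), Bax (-0.16 to 0.25), Apaf1 (-0.048 to 0.51) and Cycs (-0.35 to 0.13). The cause was not tested. The sample titles give replicate numbers without saying whether same-numbered arrays share anything. With the replicate number as a block, 2 of the 9 genes (without Casp9) and 9 of 43 genes of the wider lists passed. So did 2686 rows, 971 of them over 2-fold. Each block holds 1 array of each group, so it cannot move a group difference. The Bax to Bcl2 change therefore stayed at -0.56. Deviations of same-numbered arrays correlated across 18350 rows at r = 0.234. Crossed numbers gave r = -0.234, the mirror value that 2 arrays per group force.

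Precision is limited by 2 arrays per group, by the absence of a detection call for dim rows such as Casp9, and by the unstated rule that left 30.5% of rows blank.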
